A study of Mus musculus with 2 samples.

Results

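The SoxD, SoxE and SoxF genes are 3 subfamilies of the Sox family of transcription factors, with 9 genes in all: Sox5, Sox6 and Sox13 (SoxD), Sox8, Sox9 and Sox10 (SoxE), and Sox7, Sox17 and Sox18 (SoxF). Their accessible chromatin was described in motor neurons of the mouse embryo. A site was assigned to a gene when its summit lay inside the annotated span of the gene. A summit outside the span was assigned when it lay within 100 kb and the end of that gene was the nearest end of any protein-coding gene. The genes were chosen by family and not by their values. Chromosomes 1 to 19, X and Y carry 21887 annotated genes that code for protein, of which these are 9, and they hold 261 of the 137849 sites listed there. These 261 sites lie in 168 separate intervals.

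Embryos carrying the Hb9::GFP reporter (strain C57/Bl6) were taken at embryonic day 10.5, and their GFP-positive cells, isolated by FACS, are spinal motor neurons according to the labels. The reporter is named after Hb9, an older name of the motor neuron homeobox gene Mnx1. No further treatment or allele is given. ATAC-seq, in which the Tn5 transposase cuts and tags open chromatin, was run on 2 replicates with 8 to 9 PCR cycles and paired 75-nt reads. Peaks came as 1 list pooled over the pair, so replicate errors cannot be given and nothing can be tested between conditions. The strength of a site is given as reads, the number of overlapping reads or fragments at the summit, and as fold, the reads over the local background. A site in every cell with few reads and a site open in only some of the cells cannot be told apart in such a bulk sort. The lowest listed site had 11 reads, so sequence without a site is below the limit of the list and is not shown to be closed. Among 8 motor neuron marker genes, 7 had a site within 1 kb of a gene end, against 65.5% of all protein-coding genes, and Isl2 was the exception. Sites show accessible DNA, not expression, and the purity of the sort was not tested.

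Sox proteins bind DNA through an HMG box, which bends the double helix at short A and T rich motifs. SoxD proteins lack a transactivation domain and act as partners or modulators of other Sox proteins, with Sox5 and Sox6 best known from cartilage and from the timing of oligodendrocyte formation in the spinal cord. SoxE proteins act in glia and in the neural crest, the migratory cells that form peripheral neurons, Schwann cells and pigment cells. Sox9 promotes the switch of spinal progenitors from making neurons to making glia, Sox10 is needed for peripheral glia and oligodendrocyte differentiation, and Sox8 overlaps with both. SoxF proteins act in the endothelium of blood and lymph vessels, and Sox17 also in the endoderm.

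Start windows of RefSeq (GRCm38.p6, 250 bases before to 50 bases after an annotated transcript start) were given for 4 of the 9 genes, and 4 of the 9 windows of these genes held a summit. Over all genes 32.5% of 32851 windows did. The 4 are shown because each carries the accessible start of a member and they differ in CpG content. Sequences run 5′ to 3′ on the minus strand, the strand of these genes. Both strands were searched for 6 short motifs. They were the GC box, which reads GGGCGG, and the TATA box, which reads TATAAA. A further pair were the CCAAT box, named by its letters, and the homeodomain core, which reads TAATTA. The last were 2 Sox-type cores, of which the shorter reads ACAAT and the longer reads ACAAAG. Capitals mark every match.
Sox13 start, chr1:133424163-133424462: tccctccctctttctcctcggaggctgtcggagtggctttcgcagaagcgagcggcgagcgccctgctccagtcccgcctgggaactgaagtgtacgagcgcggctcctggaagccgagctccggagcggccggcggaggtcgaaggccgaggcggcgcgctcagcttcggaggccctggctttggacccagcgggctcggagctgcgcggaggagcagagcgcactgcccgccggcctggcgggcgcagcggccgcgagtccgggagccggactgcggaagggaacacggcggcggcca
Sox8 start, chr17:25570637-25570936: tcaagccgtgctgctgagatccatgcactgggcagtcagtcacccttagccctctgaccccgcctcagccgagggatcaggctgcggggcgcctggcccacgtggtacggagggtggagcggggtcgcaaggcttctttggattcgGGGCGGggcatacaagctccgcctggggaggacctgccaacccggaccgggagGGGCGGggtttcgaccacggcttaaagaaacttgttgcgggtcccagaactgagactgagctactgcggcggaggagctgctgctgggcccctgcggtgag
Sox6 first start, chr7:116038695-116038994: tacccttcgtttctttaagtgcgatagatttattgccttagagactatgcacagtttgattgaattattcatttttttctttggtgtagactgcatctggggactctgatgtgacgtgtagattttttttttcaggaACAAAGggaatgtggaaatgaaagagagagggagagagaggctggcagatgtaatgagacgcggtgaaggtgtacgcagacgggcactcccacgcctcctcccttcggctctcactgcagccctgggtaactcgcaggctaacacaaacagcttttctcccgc
Sox6 internal start, chr7:115824661-115824960: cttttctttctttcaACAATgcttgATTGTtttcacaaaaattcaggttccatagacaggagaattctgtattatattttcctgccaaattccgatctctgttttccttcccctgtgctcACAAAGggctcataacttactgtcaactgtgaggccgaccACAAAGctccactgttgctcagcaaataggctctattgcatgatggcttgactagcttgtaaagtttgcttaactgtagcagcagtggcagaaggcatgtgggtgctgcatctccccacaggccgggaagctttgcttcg
The Sox13 window held 40 CpG dinucleotides, more than most windows, as 3.91% of all windows held at least as many. The Sox8 window held 21, the first Sox6 window 11 and the internal Sox6 window 4, against a median of 22 in all windows with a summit and 4 in windows without one. The internal Sox6 window thus held a summit with as many CpG dinucleotides as the median window without one. The first Sox6 window, 2.03 kb inside the gene from its start, held 2 summits, the stronger of 2.79-fold and 44 reads. The internal Sox6 window held 2 ACAAT and 2 ACAAAG cores, which occur in 31.0% and 18.7% of all windows. The Sox8 window held 2 GC boxes, found in 35.7% of all windows, and the first Sox6 window 1 ACAAAG core. The Sox13 window held none of the 6 motifs. The TATA box, present in 13.6% of all windows, the CCAAT box, in 37.4%, and the homeodomain core, in 5.29%, were in none of the 4 windows shown. A motif is a match of letters and not a binding site.

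All 9 genes had a site within 1 kb of an annotated end, against a background of 65.5% of all protein-coding genes. The strongest of these differed widely. Sox13 reached 8.50-fold, Sox8 8.44-fold, Sox7 7.29-fold and Sox5 7.18-fold. Sox6 reached 5.06-fold, Sox9 4.90-fold, Sox18 3.92-fold, Sox17 2.78-fold and Sox10 2.58-fold. The median over all genes with such a site was 8.17-fold, so only Sox13 and Sox8 stood above it. Weak ends were found in SoxE and in SoxF alike, and the 2 lowest were Sox10, the factor of peripheral glia, and Sox17, the factor of endoderm and arterial endothelium. The low place of Sox17 depends on the 1 kb window, as a summit of 5.83-fold and 77 reads lay 1227 bp from its lower-coordinate end. Of all genes with a site at an end, 94.6% had one at least as strong as that of Sox10. With a window of 500 bp instead of 1 kb, 8 of the 9 genes kept a site, and Sox10 was the one without. The share of all protein-coding genes at 500 bp was not computed, so this count has no background.

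**Figure D1:**
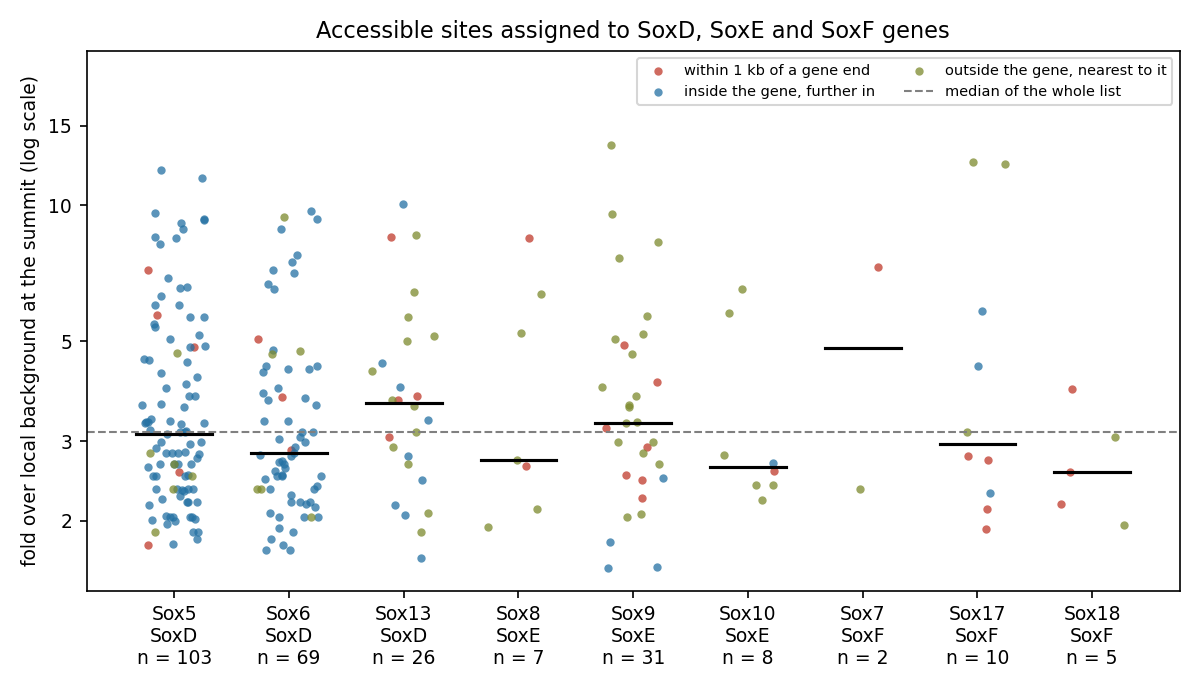
Fold over local background (log scale) of each of the 261 sites by gene, with colours for position, a black bar for the median of each gene and a dashed line for the 3.14-fold median of the whole list. Each gene with more than 5 sites has values on both sides of the dashed line, and the highest points belong to Sox9 (13.6-fold), Sox17 (12.5-fold) and Sox5 (11.97-fold).

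Strength did not set the 261 sites apart from the whole list. Their median was 2.98-fold and 30 reads, against 3.14-fold and 24 reads over the list. A share of 85.8% had a q-value under 0.05 (95% exact binomial interval 81.0 to 89.8%, counting error only), against 82.3% of the whole list. The 261 summits lie in 168 listed intervals and are not independent, so the binomial interval is not a test of this difference. Sites of 5-fold or more made up 58 of 261 (22.2%), against 25.5% of the list. Position differed more. The share within 1 kb of a gene end was 11.5%, against 18.3% of the list. The background at the summit had a median of 8.31 reads, against 5.72 reads over the list.

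The subfamilies differed in where their sites lay. In SoxD, 161 of 198 sites (81.3%) lay inside the gene more than 1 kb from its ends, 25 (12.6%) outside and 12 (6.06%) at the ends. The high share inside came from Sox5, with 92 of 103 sites, and Sox6, with 60 of 69. Sox13 differed, with 9 of 26 sites further inside, 13 outside and 4 at the ends. In SoxE, 31 of 46 sites (67.4%) lay outside the gene, 10 (21.7%) at the ends and 5 (10.9%) further inside. In SoxF, 8 of 17 sites (47.1%) lay at the ends, 6 (35.3%) outside and 3 (17.6%) further inside. Sox5 spans 953.9 kb, Sox6 569.9 kb and Sox13 42.2 kb. The SoxE genes span 4.79 to 9.58 kb and the SoxF genes 1.804 to 7.03 kb, so length does not separate SoxE from SoxF. Sites of 1 gene share its chromatin and are not replicates, so the shares are given without a test.

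Site counts also followed the length of sequence searched, so densities were compared. Territory is the span of a gene plus the flanking sequence for which its end is the nearest. SoxD had 10.02 sites per 100 kb of territory (95% exact binomial interval 8.67 to 11.5), SoxE 15.7 (11.5 to 20.99) and SoxF 9.06 (5.28 to 14.5). Over all chromosomes the density was 5.12 sites per 100 kb. The ratio to this value was 1.96 in SoxD, 3.07 in SoxE and 1.77 in SoxF. The intervals cover counting error only, and those of SoxE and SoxF overlap. With a reach of 250 kb in place of 100 kb, SoxE had 57 sites in 571 kb and a ratio of 1.95. With only 1 summit kept per listed interval, the ratio was 2.40 in SoxE (95% exact binomial interval 1.58 to 3.49). It was then 1.71 in SoxD (1.43 to 2.03) and 1.52 in SoxF (0.759 to 2.72), and these binomial intervals overlap. The SoxF value joined unlike genes, since Sox18 had 44.5 sites per 100 kb in a territory of only 11.2 kb, Sox7 6.86 and Sox17 6.79. Counted by summits, the SoxE genes lay close together, with 18.4 sites per 100 kb for Sox10, 16.2 for Sox8 and 15.1 for Sox9. Their 8, 7 and 31 summits lay in 5, 3 and 19 intervals. Of the SoxD genes, Sox13 had 19.6, Sox6 9.997 and Sox5 8.93. The median over all protein-coding genes was 6.004 sites per 100 kb, and each of the 9 genes was above it, Sox7 and Sox17 by less than 1 site.

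**Figure D2:**
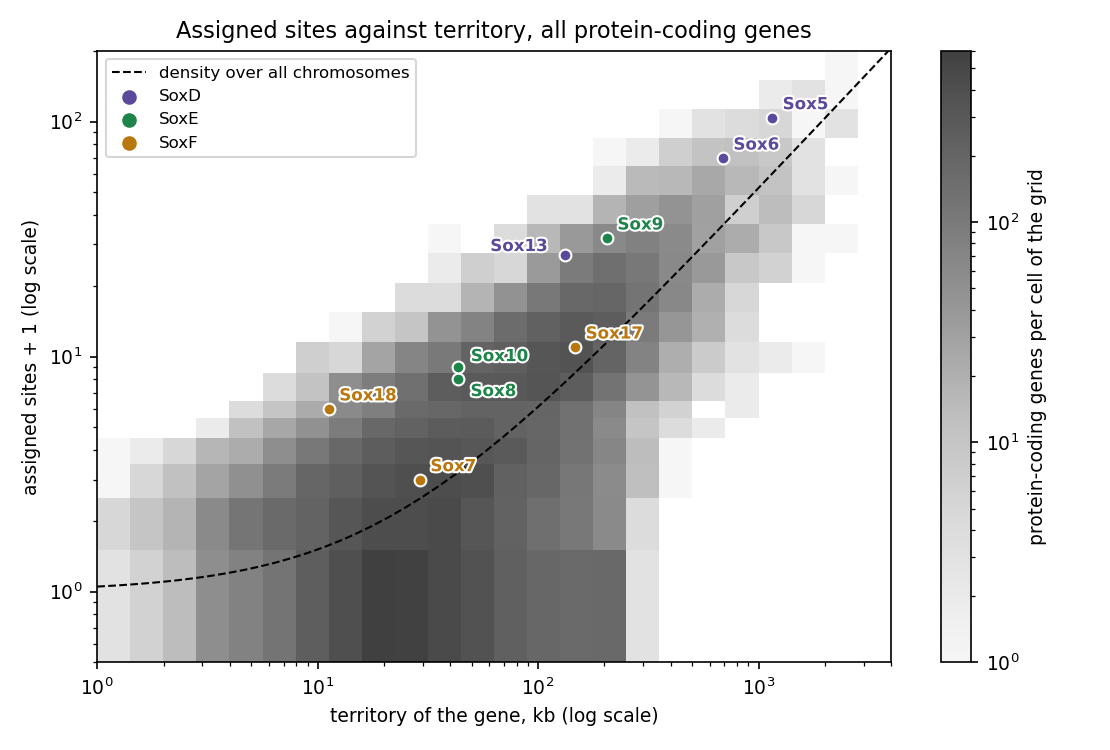
Number of assigned sites plus 1 against territory in kb (both log scales) for the 9 Sox genes (coloured points) over all protein-coding genes (grey cells, shaded by number of genes), with a dashed curve for the density over all chromosomes. All 9 points lie above the curve. As a ratio of densities, without the 1 added to each count, Sox18 was highest at 8.69 times and Sox17 lowest at 1.33 times.

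By count, the 2 long SoxD genes stood near the top of the genome. Sox5 had 103 sites in 70 intervals, the 10th highest count of 21887 genes, and Sox6 had 69 sites in 44 intervals, the 47th. By density they ranked 7541st and 6602nd. Sox13 ranked 644th by count and 2256th by density. Sox5 had 94 of its sites inside the span (chromosome 6, 143828425 to 144782287), 8 above its higher-coordinate end and 1 below its lower-coordinate end. The gene lies on the minus strand, so its start is at the higher-coordinate end. All 5 gene-end sites shared 1 interval there (144781376 to 144783097), with 81, 64, 54, 28 and 19 reads. No site lay within 1 kb of the far end. The RefSeq window of Sox5, at an internal start 835 kb from the gene start, held no summit, and the nearest lay 2088 bp away.

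The strongest sites of Sox5 were deep inside the gene. The highest fold, 11.97-fold with 144 reads, lay at 144481101 to 144481563, 301 kb from the gene start. The most reads, 197 at 11.5-fold, were at 144154863 to 144155600, 327 kb from the far end. Another site, of 149 reads and 9.33-fold, lay at 144454026 to 144455122. All 3 exceeded the 81 reads of the start itself. In 10 equal parts of the span, counted from the far end, Sox5 had 12, 6, 6, 13, 14, 10, 16, 5, 5 and 7 sites. Parts 7, 5 and 4 thus held the most, at 16.8, 14.7 and 13.6 sites per 100 kb, and parts 8 and 9 the fewest, at 5.24 each. The median site of Sox5 had 24 reads, equal to the median of the list.

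Sox6 (chromosome 7, 115470872 to 116040776) had 63 sites inside its span and 6 below its lower-coordinate end, the far end of this minus-strand gene. Its 3 gene-end sites, of 63, 47 and 35 reads, shared the interval 116039714 to 116040822 at the gene start. The highest fold, 9.70-fold with 94 reads, lay at 115645389 to 115646371, 175 kb from the far end. The most reads, 140 at 7.17-fold, were at 115865743 to 115866740. A site outside the gene, 55.4 kb beyond the far end at 115415090 to 115415863, had 9.41-fold and 79 reads. The site over the internal start shown above had 6.68-fold and 90 reads, more than the 63 reads at the gene start, and its summit lay 231 bp upstream of that internal start. In 10 equal parts from the far end, Sox6 had 4, 7, 4, 7, 8, 1, 13, 5, 3 and 11 sites. Parts 7 and 10 held the most, part 6 held 1, and the widest stretch without a site was 64.6 kb, just short of the cluster at the start.

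**Figure D3:**
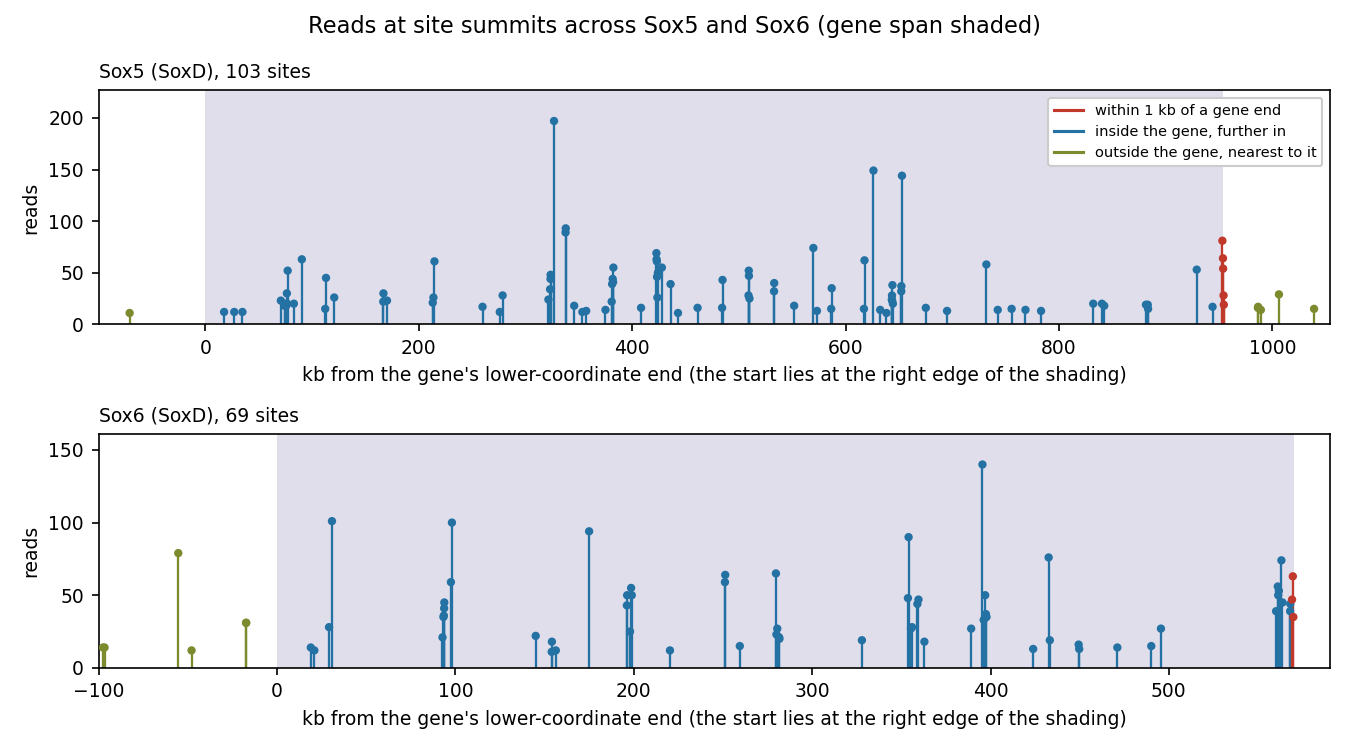
Reads at each summit (vertical axis) against distance in kb from the lower-coordinate end of Sox5 (top) and Sox6 (bottom), with the gene span shaded and colours for position. The tallest lines, 197 reads in Sox5 and 140 in Sox6, stand inside the spans, and the gene starts at the right edge of the shading reach 81 and 63 reads.

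Sox13, first known as an autoantigen and active in T cells, is far shorter at 42.2 kb (chromosome 1, 133382300 to 133424459). It had 26 sites, of which 12 lay inside the span and 13 above its start. The summit at its start, 19 bp downstream of the RefSeq transcript start, had 8.50-fold and 103 reads. A stronger site inside the gene, 15.6 kb from the far end at 133397275 to 133398317, had 10.1-fold and 151 reads. A cluster of 4 summits at 133492155 to 133493766, 67.8 to 69.1 kb upstream of the gene, had 33, 138, 80 and 90 reads. The start of Sox13 was thus near the median, as 46.3% of genes with a site at an end had one at least as strong. Its strongest sites lay within and upstream of the gene, and 7 of its 26 sites reached 5-fold. Sox5 reached 5-fold at 24 of 103 sites and Sox6 at 11 of 69, against a background of 25.5% of the list.

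Sox9 held 31 of the 46 SoxE sites. The gene (chromosome 11, 112782210 to 112787757) stands in a gene desert, so the full reach of 100 kb was searched on both sides. The sites were uneven. Above the higher-coordinate end 17 sites lay over 100 kb, with 17 to 177 reads, and below the lower-coordinate end 7 lay over the same length, with 12 to 88 reads. Of those 7, 4 lay within 1 kb of the gene, and the other 3 were weak, with 12 to 18 reads at 61.5 to 73.7 kb. The strongest site of all 9 genes by fold, 13.6-fold with 177 reads, lay at 112811153 to 112811932, 23.5 kb from Sox9 and 700 bp from an end of the long noncoding RNA Gm30562. By p-value it ranked 1583rd of all listed sites. A cluster of 3 summits at 112869958 to 112870894 had 124, 134 and 81 reads, 82.4 to 83.0 kb from Sox9 and inside the noncoding gene Gm46301. A further site of 9.56-fold and 80 reads lay 97.9 kb away.

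The Sox9 gene itself was covered by many moderate sites. All 7 gene-end sites lay at the lower-coordinate end, with 44, 40, 45, 88, 52, 57 and 72 reads from low to high coordinate. The highest of them was 4.90-fold, because the local background was 17.0 to 17.3 reads, the upper part of the 5.37 to 20.2 reads found over all 261 sites. Another 4 sites inside the gene had 26 to 42 reads. The end of Sox9 therefore had fewer reads than its strongest flanking sites, 88 against 177, 134 and 124.

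Sox10 (chromosome 15, 79154913 to 79164490) had 8 sites and no strong one at the gene. The 2 inside the span had 23 and 26 reads, at 2.69-fold and 2.58-fold, of which the second lay 903 bp from the higher-coordinate end. A pair of weak sites followed at 2.45 to 2.63 kb beyond that end, with 28 and 24 reads, and a single site of 15 reads at 12.8 kb. The strongest were 2 summits of 1 interval at 79192640 to 79193724, 28.5 and 28.7 kb from the gene, with 69 and 78 reads at 5.77-fold and 6.51-fold. Another summit of that interval had 26 reads. All 6 sites outside the gene lay inside the noncoding gene Gm10863. Another 25 sites within 100 kb of Sox10 were nearer to other genes.

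Sox8 (chromosome 17, 25565893 to 25570686) showed the opposite arrangement, with its strongest site at the start and no summit inside. Of genes with a site at an end, 47.1% had one at least as strong. Its 7 sites lay in 3 intervals, with all 7 summits outside the span. The summit at the start, 121 bp upstream of the RefSeq transcript start, had 8.44-fold and 129 reads, with a second of 40 reads in the same interval. The summit of 129 reads also lay 4 bp from an end of the noncoding RNA Cerox1, so the ends of both genes lie at it. Beyond the far end a site of 65 reads and 6.37-fold lay 4.04 kb away, and a cluster of 4 summits, with 16, 21, 15 and 44 reads, lay 9.54 to 10.2 kb away. Another 25 sites within 100 kb of Sox8 were nearer to other genes. Within SoxE the strongest gene-end site thus had 129 reads in Sox8, 88 in Sox9 and 26 in Sox10.

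**Figure D4:**
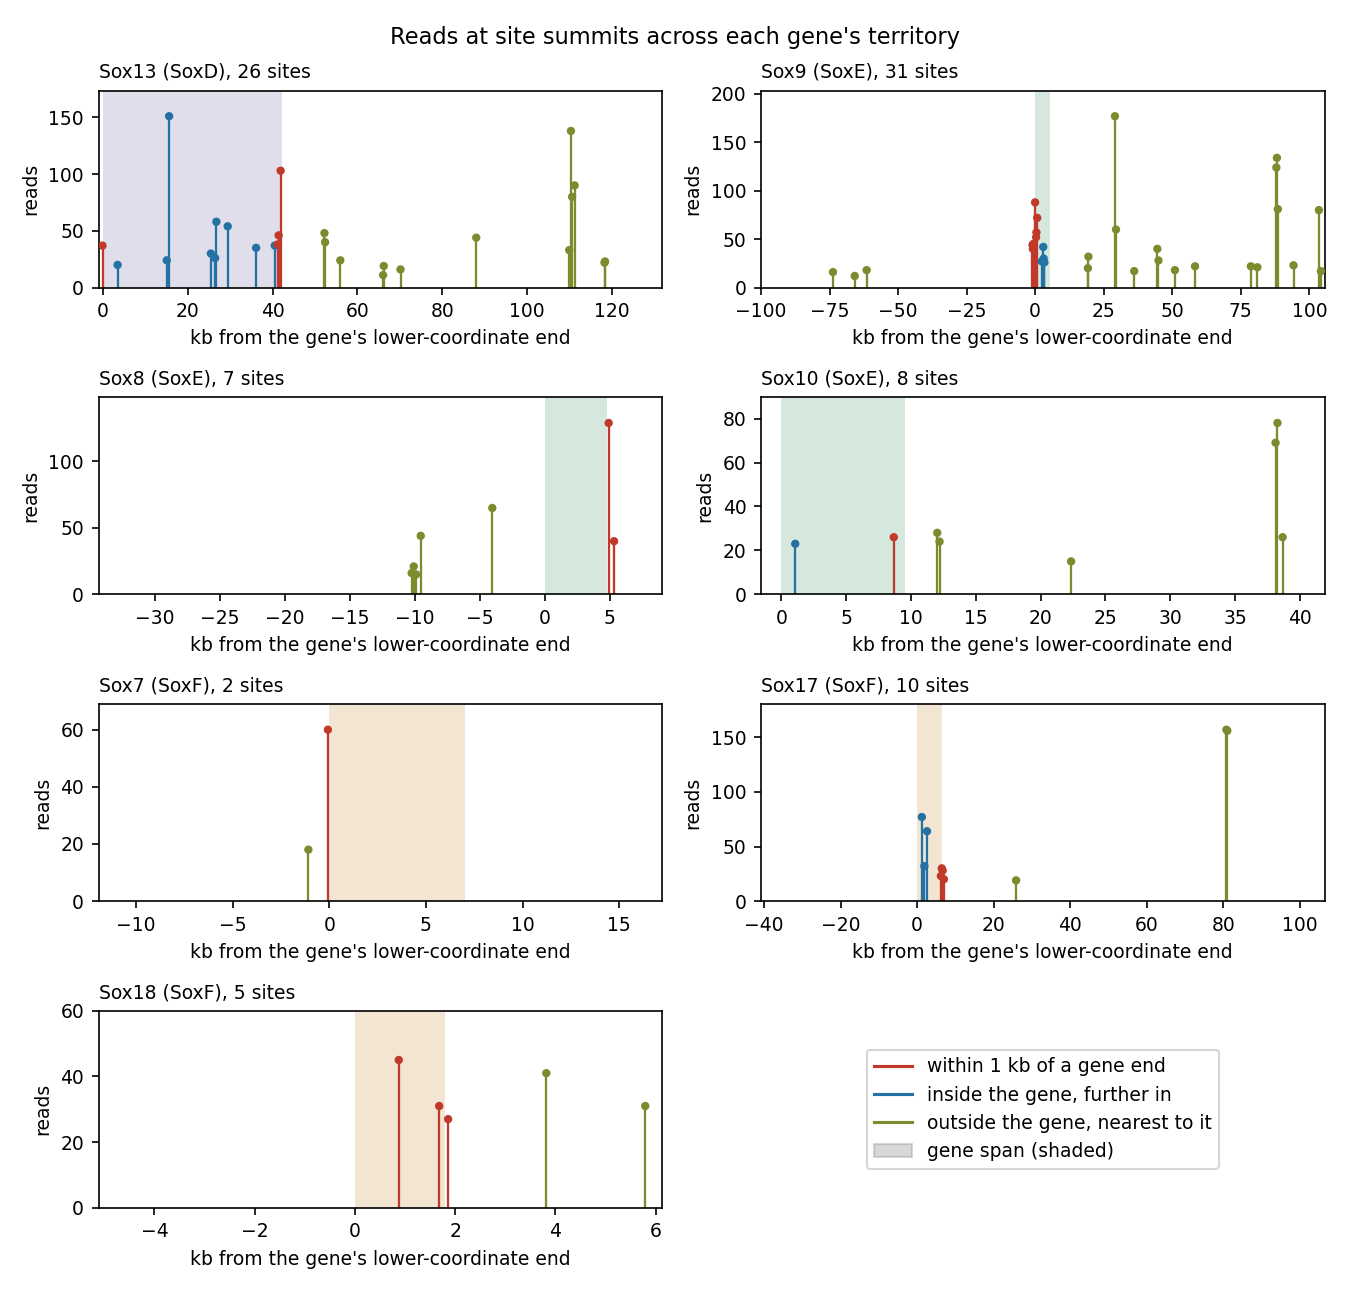
Reads at each summit against distance in kb from the lower-coordinate end of the 7 shorter genes, each over its own territory, with the gene span shaded and colours for position. Scales differ between panels. Sox9 and Sox17 have their tallest lines outside the gene (177 and 157 reads), Sox8 and Sox7 at a gene end (129 and 60), and Sox18 has none above 45.

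The 3 endothelial SoxF genes had 17 sites between them. Sox17 (chromosome 1, 4490928 to 4497426) had 10, of which 5 lay inside the span. Near its lower-coordinate end 3 summits had 77, 32 and 64 reads, the first of them 5.83-fold and 1227 bp from the end. At the higher-coordinate end 4 summits of 1 interval had 23, 30, 28 and 20 reads. The strongest sites were far from the gene. The interval 4571361 to 4572353, 74.3 to 74.6 kb above the gene and inside the noncoding gene Gm37323, held 2 summits of 12.5-fold and 12.3-fold with 157 and 156 reads. Between this interval and the higher-coordinate end, a single assigned site, of 19 reads, lay more than 1 kb from the gene. Another 4 sites within 100 kb of Sox17 were nearer to other genes.

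Sox7 (chromosome 14, 63943706 to 63950732), which acts in early endothelium, had the fewest sites of the 9 genes. One of 60 reads and 7.29-fold lay 70 bp outside its lower-coordinate end, and one of 18 reads and 2.35-fold lay 1079 bp outside. No site lay inside the gene and none on its other side was assigned to it. Another 10 sites within 100 kb of Sox7 were nearer to other genes. Sox18 (chromosome 2, 181669837 to 181671640), a regulator of lymphatic vessels, had 5 sites. They had 45, 31 and 27 reads at the gene and 41 and 31 reads at 2.01 and 3.99 kb beyond the higher-coordinate end. Its highest value was 3.92-fold. Of the 9 genes only Sox18 had no site of 5-fold or more, but it had just 5 sites, and 25.5% of the list reached 5-fold. Its high density thus rested on 5 sites, in 4 intervals, over 11.2 kb. Most were low in fold, but all had more reads than the list median of 24. SoxF without the Sox17 gene had 7 sites, of which 1 reached 5-fold, against 25.5% of the list.

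The edges of the rule touched weak sites in most genes. Where the reach of 100 kb set the limit, the last assigned site had 11 to 17 reads for Sox5, Sox6 and Sox9, and the first one beyond it 11 to 21 reads. For Sox17 the last assigned were the 2 strong summits, and the next site, at 112 kb, had 18 reads. Another gene set the limit at 12 edges, and at 10 of them the first site beyond had 1.78-fold to 4.49-fold and 11 to 30 reads. The other two were strong, with 10.4-fold and 118 reads at 8.43 kb above Sox8 and 13.1-fold and 171 reads at 52.5 kb above Sox6. When the ends of noncoding genes also competed for sites, 210 sites were left. SoxE thus kept 14 of 46 sites, SoxD 182 of 198 and SoxF 14 of 17. The territories shrank too, and the density ratio to all chromosomes was then 3.996 in SoxE, 2.08 in SoxD and 2.76 in SoxF, against 3.07, 1.96 and 1.77 when only protein-coding ends counted.

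The lists of genes that mark the cell types of the 3 subfamilies were examined beside them. Of 16 neural crest and Schwann cell genes, 15 had a site at a gene end, and their median density was 11.8 sites per 100 kb. Mitf, the pigment cell regulator, had the most sites with 31, then Pax7 with 24 and Pax3 with 23. Of 12 glial genes 10 had one (median density 11.03). The list was led by Nfia with 68 sites, none of them at an end, then Nfib with 37, and Mbp and Slc1a3 with 24 each. Of 16 endothelial genes 9 had one (median density 8.89), and the list was led by Nr2f2 with 41, Prox1 with 25 and Flt1 with 21. Of these, Nr2f2 is also a gene of neurons. Of 9 cartilage genes 6 had one (median density 5.42) and of 6 blood genes 1 (8.57), with no site at all for Gata1 and Hba-a1, against 65.5% and 6.004 over all genes. The SoxE genes, at a median of 16.2, had a higher median than the crest and glial lists, and the SoxF genes, at 6.86, a lower one than the endothelial list. These are medians of 3 genes each. Sites pooled over territory gave 9.06 per 100 kb in SoxF against 8.52 in the endothelial list, the opposite order. For SoxE the pooled value of 15.7 was again above those of the crest (10.1) and glial (10.5) lists. All of these densities count summits. The 46 SoxE summits lay in 27 intervals, and densities by interval were not computed for the lists. Whether other cells in the sort contributed to any of these sites was not tested.

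The other Sox genes give a further scale. Of these 11, 8 (72.7%) had a site at a gene end, against 65.5% of all protein-coding genes, with a median of 12 sites and a density of 11.2 per 100 kb. Among the neural progenitor genes, Sox2 had 36 sites at 17.8 per 100 kb, Sox1 33 at 22.5 and Sox3 15 at 7.42. Of the genes that act in young neurons, Sox4 had 23 sites at 11.2 per 100 kb and Sox11 14 at 6.72. Sry, the testis-determining gene, had no site. The SoxE genes, at 15.1 to 18.4 sites per 100 kb, and Sox17 and Sox7, at 6.79 and 6.86, all lay within the range of the other Sox genes, which ran up to 30.2 for Sox12.

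**Figure D5:**
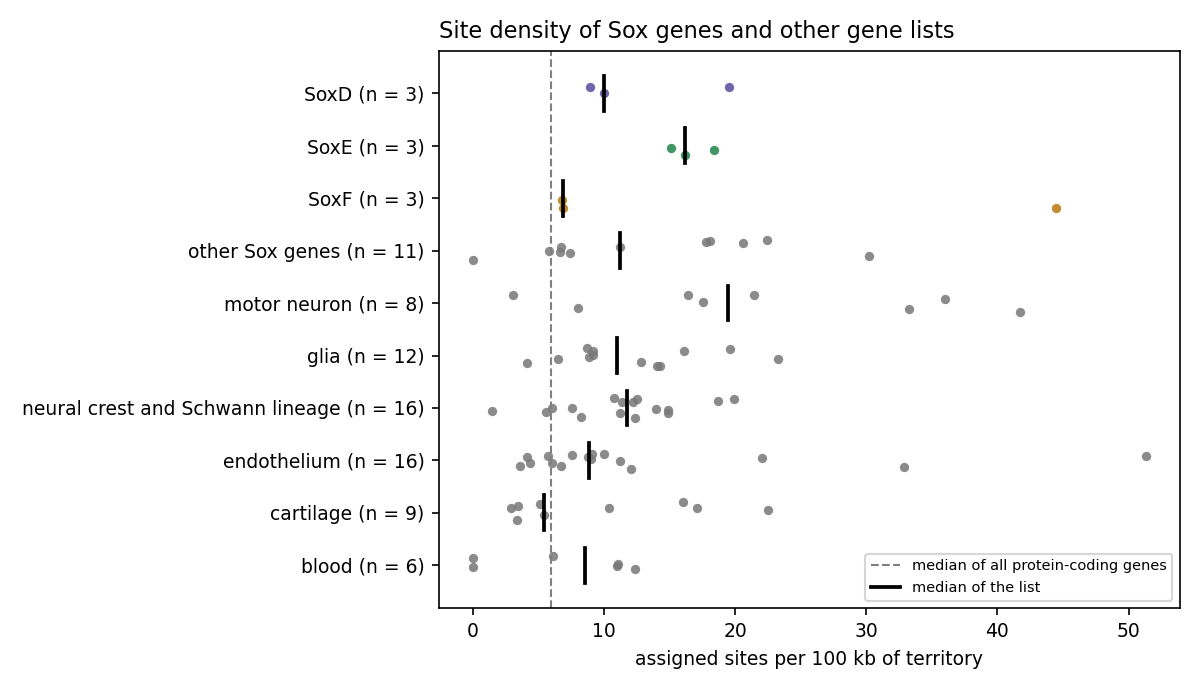
Assigned sites per 100 kb of territory for each gene of the 3 subfamilies (coloured, top) and of the comparison lists (grey), with a black bar for the median of each list and a dashed line for the 6.004 of all protein-coding genes. The SoxE points lie together between 15.1 and 18.4, while Sox18, at 44.5, stands apart from the other SoxF genes.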

How the data were processed

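The deposited list pooled both replicates and had been filtered, per the name the authors gave it. Per the submitters' processing notes, the build was mm10 and the tools were MACS2 2.2.7.1, SAMtools 1.7.2, BWA 0.7.1.7, cutadapt 0.6.2 and Trim Galore. How each was set, how duplicates were treated and whether reads were shifted for Tn5: not given in the sources used here. The deposited fold is the authors' ratio of summit reads to background. The deposited −log10 p-value and −log10 q-value are the authors' too. The deposited score was not used.

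Reads and background were recovered by solving the Poisson tail above the pileup together with the ratio (reads + 1)/(background + 1). Of all entries, 99.96% gave a pileup that was whole to within 0.01. The lowest background was 5.37 reads. Library depths are not known, and pileups limit precision by counting error.

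Gene spans came from RefSeq GRCm38.p6, the assembly behind mm10, and coordinates count from 1. The density over all chromosomes used 2694 Mb, from the first to the last gene or site. Strand came from the RefSeq start windows for Sox5, Sox6, Sox8 and Sox13 and was not used for the other genes. Recovery and assignment were tested on simulated data. Python 3.11.15, numpy 2.4.6, pandas 2.3.3 and scipy 1.17.1 were used. All 9 members are named, with their strongest sites at, inside and outside the gene, and up to 3 genes per list by site count, others being named after their values were seen. The members, lists and alternatives were chosen with earlier results of these data known. No test across samples was possible.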

Additional observations from a re-analysis of the deposited data

How the results depend on the processing

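Of 42 values recomputed under other settings, 39 stayed within 1.5 times the count or within the 95% binomial interval of the value reported. Some of these could not move. No site at the 9 genes had a background of 30 reads or more, so leaving out such entries removed none of them. A gene-end window of 2 kb could not raise the count of genes above 9. The limit of 1.5 times also counts 7 of 9 genes as unchanged. The number of sites at the 9 genes was 261. It was 136 after keeping the stronger 50% of entries (ranked by −log10 q) and 168 with 1 entry per interval, both of which keep fewer entries by construction. The SoxE density relative to all chromosomes was 1.95 with a reach of 250 kb, against 3.07; the added sequence had a lower density. Without sites and sequence within 1 kb of a gene end, an alternative chosen after seeing the data, the ratio was 2.20 for SoxD, 2.98 for SoxE and 1.19 for SoxF. With the upper 50% of entries, 7 of 9 genes kept a site at an end, and Sox10 and Sox17 did not. The share of all protein-coding genes under that setting was not computed. The share with q under 0.05 is fixed by the settings that filter on q and was not recomputed there. No replicate could be left out, and the depth of each is not known. No paired analysis was possible because the list pools both replicates of 1 group. A depth of 11 reads was the lowest that gave an entry.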

Other observations

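Beyond the reach of 100 kb the deserts around 4 of the genes held further sites. Below Sox9, the 955 kb up to Gm11677 held 47 sites, 4.92 per 100 kb or 0.962 times the density over all chromosomes. Among them was 1 of 12.4-fold and 130 reads, 280 kb from Sox9 at chromosome 11, 112501623 to 112502380. Of the 47, 11 reached 5-fold, against 25.5% of the list. Above Sox9, the 356 kb up to Slc39a11 held 38 sites at 10.7 per 100 kb, 2.09 times that density, of which the strongest had 9.69-fold and 93 reads at 414 kb. Over these whole stretches the density was higher above Sox9 than below it, and this was not tested. Above Sox9 the first site beyond the reach lay at 139.8 kb, and the strongest was nearer to Slc39a11 than to Sox9. With a reach of 250 kb the SoxE count rose only from 46 to 57 sites. Most of the 38 sites were thus nearer to Slc39a11, and an excess running outward from Sox9 is not shown. Beyond Sox6 the 519 kb up to Insc held 24 sites at 4.62 per 100 kb, with a strongest site of 9.43-fold and 110 reads at 413 kb. Beyond Sox5 the 519 kb up to Etnk1 held 30 sites at 5.78 per 100 kb, and on its other side the 110.5 kb up to Bcat1 held 9 at 8.14 per 100 kb. Beyond Sox17 the 175 kb up to Mrpl15 held 5 sites at 2.86 per 100 kb, none of 5-fold or more. Which gene any of these sites serves cannot be read from the list.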
